A study of Mus musculus with 6 samples.

Results

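Transcripts of the sterol and fatty acid synthesis pathway were compared between CD4 T cells with floxed Dicer alleles and cells in which Cre acts on those alleles. The members are 36 genes chosen by name: the enzymes of the mevalonate, sterol and fatty acid routes and the SREBP machinery that controls them. Of these, 35 had at least 1 array row that names them alone, out of 19935 genes measured this way; Acat2 was not analysed here. No measured value enters the choice, but the pathway was picked with the differences between the genotypes in these same 6 arrays already known. Every difference, call and count of members below is therefore a description, and none is evidence beyond itself.

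The cells were CD4+CD62L- T cells, described by the labels as resting, purified from mouse lymph node by cell sorting, and were left untreated. Both groups carried Dicer lox/lox alleles. The 3 Dicer WT samples came from CD4Cre negative animals and the 3 Dicer KO samples from CD4Cre positive animals, in which Cre runs from the Cd4 promoter and thus acts already in developing thymocytes. The labels give neither strain nor age, and the design text calls each group 3 biological replicates. The arrays are called WT 1 to WT 3 and KO 1 to KO 3. RNA was amplified and hybridised to 1-colour Affymetrix MoGene 1.0 ST arrays. Because whole sorted populations were measured, fewer cells of a type and less RNA per cell cannot be told apart.

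Cholesterol is built from acetyl-CoA through mevalonate and isoprenoid diphosphates to squalene, which is closed into lanosterol and trimmed to cholesterol. SREBP transcription factors, made from Srebf1 and Srebf2, switch on these enzymes: SCAP carries the precursor to the Golgi when sterols are low, INSIG proteins hold it in the endoplasmic reticulum when sterols are high, and proteases release the active factor. SREBP-2 acts mainly on sterol genes and SREBP-1c mainly on fatty acid genes, and T cells raise both programmes when they leave the resting state to grow. When sterols are abundant, oxysterols activate LXR receptors, which raise the cholesterol exporters.

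An intron of Srebf2 holds the microRNA gene Mir33, and miR-33 is known to repress the exporter Abca1 and genes of fatty acid oxidation. Its mature forms need Dicer, so they are shown here beside their host gene. Sequences are from RefSeq (GRCm38.p6), written 5′ to 3′, and the capitals mark the seed, bases 2 to 8.
mmu-miR-33-5p (chr15:82198127-82198147, plus strand): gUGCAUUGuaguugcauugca
mmu-miR-33-3p (chr15:82198167-82198188, plus strand): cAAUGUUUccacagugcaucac

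Promoter sequences were searched for short motifs. Of the 35 measured members, 27 had an entry in the RefSeq promoter table (GRCm38.p6), which spans 250 bases before to 50 after a start site. The letters CCAAT, the core bound by NF-Y, a factor that works together with SREBPs, were found on either strand in at least 1 promoter of 23 of the 27 members (85.2%) and of 41.1% of all 27025 genes. Among the 8 members that were both called lower and listed, 7 had it, and so did Elovl5, the member called higher. Fdps, Fdft1 and Sqle were also called lower but had no entry, so their promoters were not searched. The GC box GGGCGG, the core bound by Sp1, was found in 21 members (77.8%) and in 38.2% of genes. The E-box CACGTG lay in 6 members (22.2%) and in 8.09% of genes. The sterol regulatory element, searched as TCACNCCAC, lay in Hmgcs1 alone (3.7% of members) and in 1.44% of genes. This count depends on the spelling. TCACNCNAC lay in 2 members (7.41%) and 3.15% of genes, and CACNCCAC in 2 members (7.41%) and 7.12% of genes. Each was in 0 of the 8 members called lower and listed. The spelling ATCACNNNA lay in 7 members (25.9%) and 11.5% of genes. It was in 4 of those 8, Srebf2, Cyp51, Msmo1 and Fasn, and in Elovl5. A match is a description of letters in this window and not a bound site. The 250 bases before the start are printed for Srebf2 and Cyp51, which fell, for Elovl5, which rose, and for Hmgcs1, which holds TCACNCCAC. Capitals mark CCAAT, its reverse complement ATTGG and the sterol element as TCACNCCAC. The other spellings are not marked.
Srebf2 (chr15:82147019-82147268, plus strand): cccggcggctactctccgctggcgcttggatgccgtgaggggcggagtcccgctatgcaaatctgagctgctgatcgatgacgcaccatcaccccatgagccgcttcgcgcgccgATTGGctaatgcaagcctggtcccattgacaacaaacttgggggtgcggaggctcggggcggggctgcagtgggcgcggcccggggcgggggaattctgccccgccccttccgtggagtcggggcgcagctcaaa
Cyp51 (chr5:4104698-4104947, minus strand): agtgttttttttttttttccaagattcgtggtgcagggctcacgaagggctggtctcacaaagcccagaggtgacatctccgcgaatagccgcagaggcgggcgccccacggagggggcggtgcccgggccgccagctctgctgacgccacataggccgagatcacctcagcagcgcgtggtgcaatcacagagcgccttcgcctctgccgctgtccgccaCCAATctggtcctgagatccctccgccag
Elovl5 (chr9:77917115-77917364, plus strand): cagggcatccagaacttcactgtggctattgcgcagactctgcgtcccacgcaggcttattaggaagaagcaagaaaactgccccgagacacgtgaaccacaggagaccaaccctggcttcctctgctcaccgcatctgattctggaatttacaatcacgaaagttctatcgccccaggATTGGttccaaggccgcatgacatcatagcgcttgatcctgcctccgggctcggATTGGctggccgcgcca
Hmgcs1 (chr13:119690101-119690350, plus strand): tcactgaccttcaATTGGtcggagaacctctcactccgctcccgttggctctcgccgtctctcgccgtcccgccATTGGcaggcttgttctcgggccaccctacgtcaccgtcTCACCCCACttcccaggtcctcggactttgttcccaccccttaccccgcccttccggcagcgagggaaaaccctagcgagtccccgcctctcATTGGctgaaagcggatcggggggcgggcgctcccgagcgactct
In Srebf2 the CCAAT match starts 135 bases before the start site, in Cyp51 29 bases before it, and the sterol element of Hmgcs1 137 bases before it.

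Each value below is a deposited log2 value from which the median of the 6 arrays of that row has been subtracted, so it says how an array compares with the others and not how abundant a transcript is. A consequence is that the arrays ranked in the middle lie at equal distances above and below 0. A difference is the mean of the 3 Dicer KO arrays minus the mean of the 3 Dicer WT arrays on this log2 scale, given with the standard error (SE) of limma's moderated fit (n = 3 per genotype). A gene is called higher or lower where limma's adjusted p, corrected over all 19935 genes, is under 0.05.

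Part of the sterol pathway transcripts were called lower in Dicer KO cells, and the fatty acid elongase Elovl5 was called higher. Of the 35 members, 11 were called lower (31.4%) and 1 higher (2.86%), where 2.79% of all genes were called lower, 5.94% higher and 8.73% either way. The median difference of the members was -0.28, against -0.011 over all genes, and 29 of the 35 differences were negative. For 18 members (51.4%) all 3 KO arrays lay below all 3 WT arrays, and for 2 they lay above; of all genes, 12.7% did the first, 13.5% the second and 26.2% either. Of the 10 members in a higher level class, described below with the cell markers, 2 fell and 1 rose, with a median of -0.03 where all genes of that class had 0.10. A fit of that class alone called 1067 of its 3508 genes in either direction. By arm, 2 of 8 mevalonate genes, 6 of 11 sterol genes, 1 of 6 SREBP control genes and 2 of 10 fatty acid genes fell. The medians were -0.20, -0.30, -0.28 and -0.10 in that order, and Elovl5 was the member that rose.

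**Figure D1:**
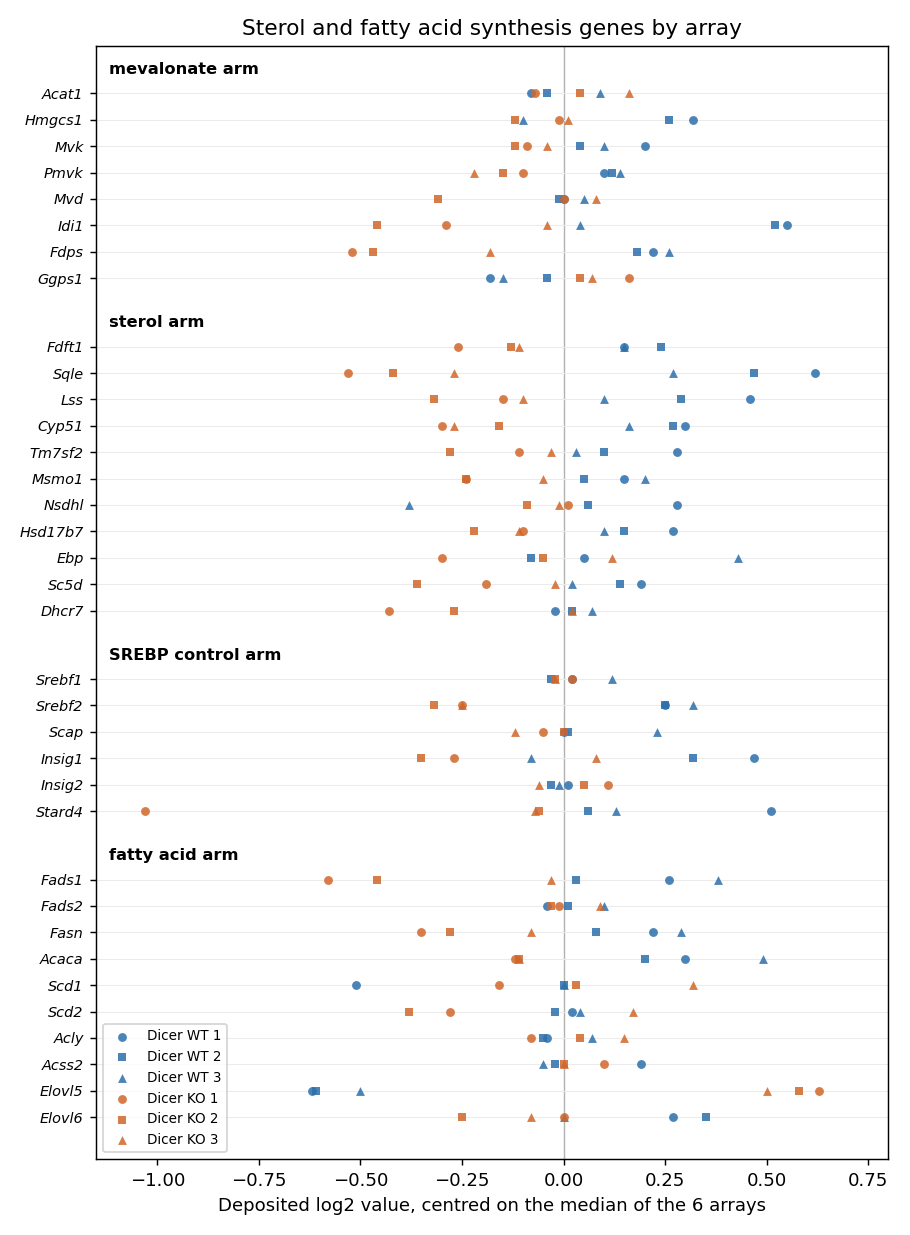
Centred log2 value (x axis) of each of the 35 members (y axis, by arm) on the 3 Dicer WT arrays (blue) and 3 Dicer KO arrays (orange); circle, square and triangle are samples 1, 2 and 3, and each point is 1 array. For 8 of the 11 sterol genes all WT points lie to the right of all KO points (not for Nsdhl, Ebp and Dhcr7), and Elovl5 shows the widest separation the other way, with WT values from -0.62 to -0.50 and KO values from 0.50 to 0.63.

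In the mevalonate arm, the largest call was Fdps, which makes farnesyl diphosphate, the branch point to sterols and protein prenylation. Fdps read 0.22, 0.18 and 0.26 on WT 1 to 3 and -0.52, -0.47 and -0.18 on KO 1 to 3. All KO arrays lay below all WT arrays, with KO 3 the nearest. It fell by 0.61 ± 0.09 on the log2 scale, or 1.53-fold (limma adjusted p = 0.00886). Pmvk, the kinase that makes mevalonate diphosphate, read 0.10, 0.12 and 0.14 in WT and -0.10, -0.15 and -0.22 in KO. It fell by 0.28 ± 0.05, or 1.21-fold, and its WT arrays were within 0.04 of each other.

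Idi1, which isomerises isopentenyl diphosphate, had the most negative difference of this arm without a call. Its values were 0.55, 0.52 and 0.04 in WT and -0.29, -0.46 and -0.04 in KO. The groups did not overlap, but WT 3 and KO 3 lay only 0.08 apart, and the difference was -0.64 ± 0.16 (limma adjusted p = 0.0547). The 2 rows of Idi1 gave -0.59 and -0.68. Mvk, mevalonate kinase, was at -0.20 ± 0.06 with arrays that did not overlap, and the synthase Hmgcs1, the enzyme that makes HMG-CoA, was at -0.20 ± 0.11 with arrays that did, since WT 3 read -0.10 and the other WT arrays 0.32 and 0.26. Mvd, the decarboxylase that makes isopentenyl diphosphate, was at -0.09 ± 0.10. Outside this pattern stood Ggps1, which makes geranylgeranyl diphosphate for prenylation and not sterols, at 0.21 ± 0.06 (not called, arrays not overlapping, KO higher). Acat1, a mitochondrial thiolase, was at 0.05 ± 0.08.

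In the sterol arm all 11 differences were negative, from -0.86 to -0.02. Sqle, squalene epoxidase, which carries out the first oxygenation of the route, had the largest fall of all members. It read 0.62, 0.47 and 0.27 on WT 1 to 3 and -0.53, -0.42 and -0.27 on KO 1 to 3. The nearest arrays of the genotypes, both of sample 3, lay 0.53 apart. The fall was 0.86 ± 0.10, or 1.81-fold (limma adjusted p = 0.00429).

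Cyp51, the lanosterol demethylase, read 0.30, 0.27 and 0.16 in WT and -0.30, -0.16 and -0.27 in KO. Here KO 2 was the KO array nearest to WT, and the fall was 0.48 ± 0.06, or 1.4-fold (limma adjusted p = 0.0054). Lss, which closes squalene epoxide to lanosterol, read 0.46, 0.29 and 0.10 in WT and -0.15, -0.32 and -0.10 in KO. Its arrays spread more within each genotype, and it fell by 0.47 ± 0.10. Fdft1, squalene synthase, fell by 0.34 ± 0.06 in the mean of its 2 rows, which gave -0.44 and -0.25; with the less variable row alone the gene was not called (limma adjusted p = 0.174). Hsd17b7, a sterol ketone reductase, fell by 0.31 ± 0.07 and Msmo1, the methyl oxidase, by 0.30 ± 0.07.

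Of the 5 sterol enzymes not called, the desaturase Sc5d was at -0.30 ± 0.09 and the reductase Tm7sf2 at -0.28 ± 0.09, both with arrays that did not overlap. Dhcr7, which makes the final reduction of one branch, was at -0.25 ± 0.11 and read -0.43 and -0.27 on KO 1 and 2 but 0.02 on KO 3, the level of WT 2. The isomerase Ebp was at -0.21 ± 0.15. Nsdhl, a decarboxylating dehydrogenase, was at -0.02 ± 0.15, with WT 1 at 0.28 and WT 3 at -0.38.

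**Figure D2:**
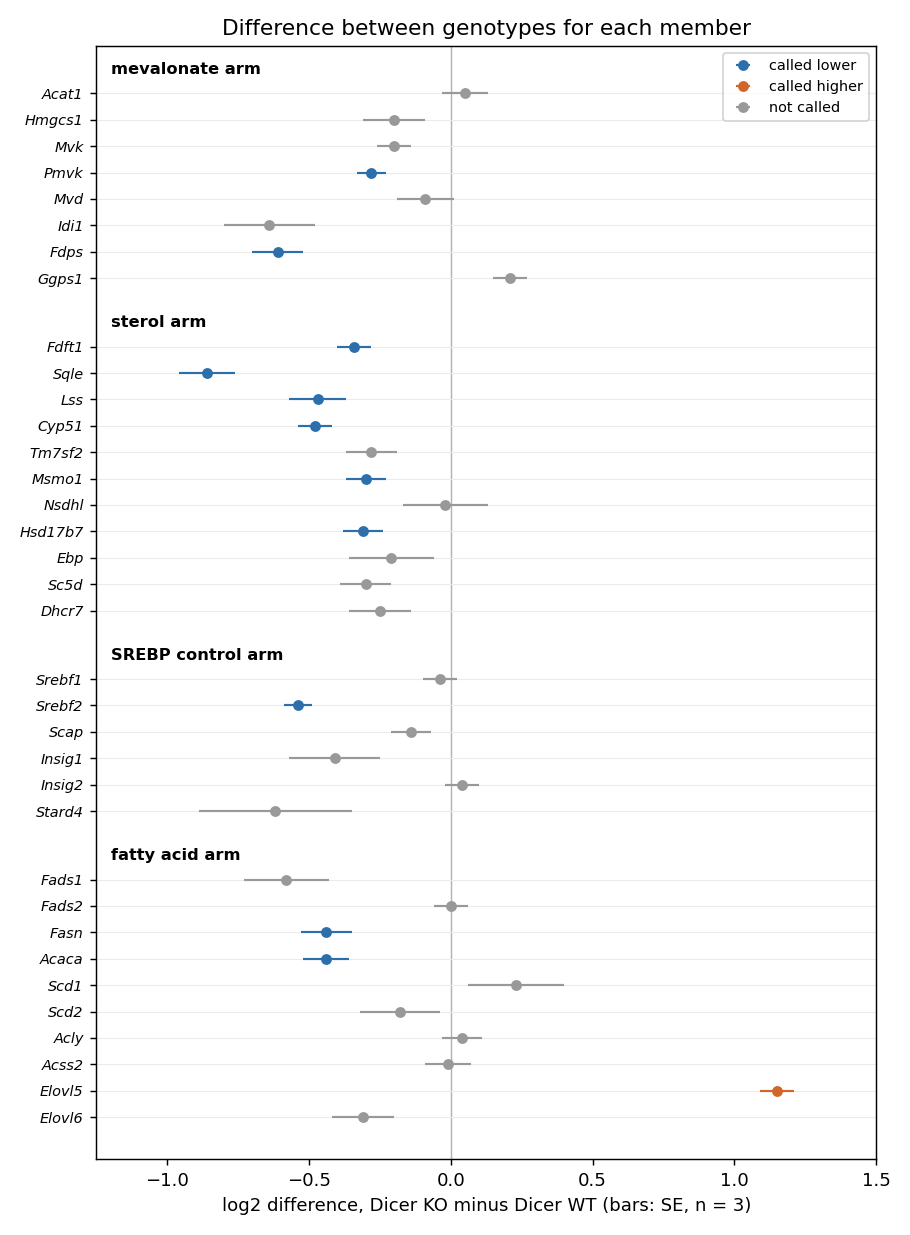
KO mean minus WT mean on the log2 scale (x axis) for each member (y axis, by arm), with bars of 1 SE of the limma fit (n = 3 per genotype); blue points were called lower, orange higher and grey not called. All 11 sterol genes lie left of 0, with Sqle at -0.86, while Elovl5 lies at 1.15.

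Among the SREBP control genes, Srebf2 fell and Srebf1 was not called. Srebf2, the sterol factor, read 0.25, 0.25 and 0.32 in Dicer WT and -0.25, -0.32 and -0.25 in Dicer KO. The arrays of each genotype were within 0.08 of each other, and the gap between the genotypes was 0.50. Srebf2 fell by 0.54 ± 0.05, or 1.46-fold (limma adjusted p = 0.00165). Srebf1, the fatty acid factor, was at -0.04 ± 0.06 and not called, with all 6 arrays between -0.03 and 0.12. The difference between these 2 genes was not tested.

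The escort Scap was at -0.14 ± 0.07, and the retention factor Insig2 at 0.04 ± 0.06. Insig1, itself a strong SREBP target, read 0.47, 0.32 and -0.08 in WT and -0.27, -0.35 and 0.08 in KO. The 2 arrays of sample 3 lay in reverse order, and the difference of -0.41 ± 0.16 was not called. Stard4, a soluble sterol carrier, was at -0.62 ± 0.27, and 1 array set its size: KO 1 read -1.03 and the other KO arrays -0.06 and -0.07. Mir33, inside Srebf2, had a row of its own. It read -0.03, 0.14 and -0.04 in WT and -0.07, 0.03 and 0.03 in KO, with a difference of -0.03 ± 0.07 (not called), while its host fell. That row is no measure of the mature microRNA.

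In the fatty acid arm, the palmitate-making enzymes Fasn and Acaca fell and Elovl5 rose. Fasn, fatty acid synthase, read 0.22, 0.08 and 0.29 in WT and -0.35, -0.28 and -0.08 in KO and fell by 0.44 ± 0.09, or 1.35-fold. Acaca, acetyl-CoA carboxylase, fell by 0.44 ± 0.08. Its rows gave -0.30 and -0.59, and on the first of them WT 2 read -0.01, level with the KO arrays. Acly and Acss2, which supply cytosolic acetyl-CoA, were at 0.04 ± 0.07 and -0.01 ± 0.08, and neither was called.

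Elovl5, which lengthens polyunsaturated fatty acids, read -0.62, -0.61 and -0.50 in Dicer WT and 0.63, 0.58 and 0.50 in Dicer KO. Each genotype spanned at most 0.13 and a gap of 1.01 lay between them. It was 2.22-fold higher in Dicer KO (log2 1.15 ± 0.06, limma adjusted p = 0.000273). The desaturases Fads1 and Fads2 act in the same polyunsaturated route. Fads1 was at -0.58 ± 0.15 and not called (limma adjusted p = 0.0658), with arrays that did not overlap but with WT 2 and KO 3 only 0.05 apart, and Fads2 was at -0.00 ± 0.06. The elongase Elovl6, which acts on saturated fatty acids, was at -0.31 ± 0.11 and not called. Scd1 (0.23 ± 0.17) and Scd2 (-0.18 ± 0.14), which make monounsaturated fatty acids, were not called, and WT 1 was far below the other arrays for Scd1, at -0.51.

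The calls rested on few arrays to differing degrees. Fdps, Sqle, Cyp51, Srebf2 and Elovl5 were called with all 6 arrays and with any 1 left out. Pmvk, Fdft1, Lss, Msmo1, Hsd17b7, Fasn and Acaca were not called without WT 1 or without KO 2, where over all genes 849 and 729 calls were made, against 1741 with all arrays. Without WT 2, Pmvk, Fdft1, Lss, Msmo1 and Hsd17b7 were not called. Without KO 1 this was so for Lss, Msmo1, Hsd17b7 and Fasn. Without WT 3 it was so for Msmo1 and Fasn, and without KO 3 for Pmvk, Lss and Hsd17b7. These adjusted p-values of limma ran from 0.0506 to 0.0773 for Pmvk, 0.0556 to 0.0604 for Fdft1, 0.0527 to 0.127 for Lss, 0.0677 to 0.164 for Msmo1, 0.0557 to 0.112 for Hsd17b7, 0.0552 to 0.102 for Fasn and 0.0552 to 0.0658 for Acaca. With WT 1, WT 2 or WT 3 left out, 4, 6 and 12 members were called lower, and with KO 1, KO 2 or KO 3 left out, 7, 4 and 13. Over all genes these fits made 849, 1050 and 1597 calls, and 1321, 729 and 1416, in either direction.

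KO 3 was most often the KO array nearest to WT, while no single WT array stood out as nearest to KO. Among the 29 members with a negative difference, KO 3 was the KO array nearest to WT for 20, against 6 for KO 1 and 3 for KO 2. WT 3 was the WT array nearest to KO for 12, WT 2 for 11 and WT 1 for 6. Over all 35 members the median was 0.19, 0.06 and 0.10 on WT 1 to 3 and -0.12, -0.15 and -0.03 on KO 1 to 3, so WT 2 and KO 3 were nearest by this measure. By arm, WT 3 was nearest to KO in the mevalonate and sterol arms and WT 2 in the SREBP control and fatty acid arms, and KO 3 was nearest to WT in each arm but SREBP control, where KO 2 was. With sample 3 of both genotypes left out, a choice made after the values were seen, 17 members were called lower, 10 of them among the 11, and 1 higher. Over all genes 1670 calls were made in that fit, in either direction. Idi1 was then at -0.91, Insig1 at -0.70, Sqle at -1.02 and Hmgcs1 at -0.36, all called, while Pmvk was not (limma adjusted p = 0.0758). Hmgcs1 (limma adjusted p = 0.0299), Idi1 (0.013) and Elovl6 (0.0343) were called lower without WT 3 alone, and Idi1 (0.0484), Sc5d (0.0439), Dhcr7 (0.0316), Fads1 (0.0165) and Scd2 (0.0252) without KO 3 alone.

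**Figure D3:**
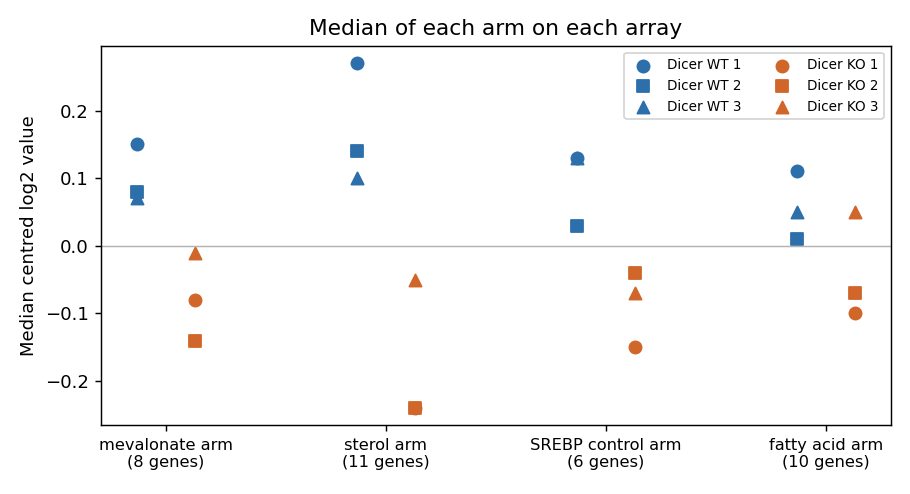
Median centred log2 value (y axis) over the genes of each arm (x axis) on each of the 6 arrays, blue for Dicer WT and orange for Dicer KO, with circle, square and triangle for samples 1, 2 and 3; there are no error bars because each point is 1 array. In the sterol arm the WT arrays lie at 0.10 to 0.27 and the KO arrays at -0.24 to -0.05 (KO 1 and 2 coincide at -0.24), whereas in the fatty acid arm KO 3 is level with WT 3 at 0.05.

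Marker genes of other cells were set beside these values. The table holds no levels, so summed marker levels cannot be given. Beside the calls in these marker lists, 5.94% of all genes were called higher and 2.79% lower. The share of all genes at unadjusted p under 0.05 was not counted, so counts at that threshold have no background here. A coarse level class, read from the step of the stored numbers, placed 17.6% of genes at a log level of 8 or more. It held 9 of 10 T cell markers, 1 of 9 B cell markers, 0 of 10 myeloid and dendritic markers, 0 of 9 adipocyte markers and 10 of the 35 members, among them Srebf2 and Elovl5. Adipocyte genes, from cells that surround lymph nodes and make fatty acids, had 1 of 9 called lower (0 with any 1 array left out), with list medians of -0.00 to 0.07 on the WT arrays and -0.04 to 0.01 on the KO arrays. B cell markers had list medians of -0.45, 0.02 and -0.20 on WT 1 to 3 and 0.16, 0.05 and 0.08 on KO 1 to 3, all 9 differences were positive (median 0.29), and 0 of 9 were called by limma (6 higher at unadjusted p under 0.05). Leaving out WT 2 gave 3 B cell markers called higher, and leaving out any other array 0. Proliferation genes, all 9 with a positive difference (median 0.37), had 1 called higher (5 at unadjusted p under 0.05; 1 without KO 1 and 0 without any other array), with list medians of -0.18, -0.01 and -0.19 in WT and 0.00, 0.17 and 0.49 in KO. Myeloid and stromal markers each had 1 gene called higher, of 10 and of 9, and the myeloid list had 0 without WT 1 or without KO 2. T cell markers had 1 of 10 called lower and 2 higher, with a median difference of -0.00, and 0 of 2 CD8 genes were called by limma (1 lower at unadjusted p under 0.05, and 1 called lower without KO 1). The part of these cells in the pathway's differences was not tested. The row of Dicer1 was at 0.02 ± 0.09 (not called). No source used here says which exons it covers, so it checks nothing about the deletion.

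Both ABC exporters of cholesterol in the related lists, Abca1 and Abcg1, rose. Of 8 measured genes of sterol efflux and the LXR pathway, limma called 3 higher (37.5%) and 0 lower (1 lower at unadjusted p under 0.05). Beside this and the lists that follow, 5.94% of all genes were called higher and 2.79% lower. Abca1, which exports cholesterol to apolipoprotein A-I, read -0.73, -0.55 and -0.54 in Dicer WT and 0.93, 0.54 and 0.66 in Dicer KO. The genotypes were 1.07 apart at their nearest arrays, and Abca1 was 2.49-fold higher in Dicer KO (1.31 ± 0.11, limma adjusted p = 0.00126). Abcg1, which exports cholesterol to HDL, rose by 0.60 ± 0.11, and Mylip, a ubiquitin ligase that removes lipoprotein receptors, by 0.25 ± 0.06. Abcg1 was not called without WT 1, WT 2, KO 2 or KO 3 (limma adjusted p 0.0519 to 0.0737), and Mylip was called only with all arrays or without WT 2 among these fits (0.0657 to 0.132 in the others). The list median was 0.02. The LXR gene Nr1h3 (-0.06 ± 0.07), Rxra (-0.08 ± 0.08), Rxrb (-0.21 ± 0.05), Apoe (-0.05 ± 0.11) and Pltp (0.08 ± 0.08) were not called.

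Of 12 genes of sterol uptake and trafficking, 4 rose and 1 fell (33.3% and 8.33%). Lipa, the lysosomal lipase that frees cholesterol from its esters, rose by 0.84 ± 0.10, or 1.79-fold (limma adjusted p = 0.00443). Osbp, an oxysterol-binding transfer protein, rose by 0.31 ± 0.05 and the transfer protein Gramd1c by 0.29 ± 0.05. Scarb1, an HDL receptor, read 0.23, 0.13 and 0.12 in WT and -0.51, -0.34 and -0.12 in KO and fell by 0.49 ± 0.10. Osbp was not called without KO 2 (limma adjusted p = 0.0504), Gramd1c without WT 1 or KO 2 (0.0703 and 0.0778), and Scarb1 without WT 1, WT 2 or KO 2 (0.0754 to 0.102). Leaving out WT 1 gave 2 genes of this list called higher, and leaving out KO 2 gave 1.

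Of 15 genes that process or turn over SREBPs or act beside them, limma called 5 higher (33.3%) and 0 lower (2 lower at unadjusted p under 0.05), with a median of 0.08. Pgrmc1, a haem-binding membrane protein that associates with sterol enzymes of the P450 family, read -0.58, -0.51 and -0.57 in WT and 0.61, 0.72 and 0.51 in KO, 2.25-fold higher in Dicer KO (1.17 ± 0.06, limma adjusted p = 0.000368). Mbtps1, the site-1 protease that makes the first cut in SREBPs, rose by 0.47 ± 0.06. Nfyc, a subunit of NF-Y, rose by 0.34 ± 0.06 while the subunits Nfya (0.03 ± 0.05) and Nfyb (-0.02 ± 0.13) were not called. Erlin2, which takes part in sterol-dependent degradation at the endoplasmic reticulum, rose by 0.53 ± 0.11. Nfyc was not called once WT 1, KO 2 or KO 3 was left out (limma adjusted p 0.0576 to 0.0899), and Erlin2 without any array but WT 3 (0.0703 to 0.0888). Without WT 1, 2 of the list were called, and 2 without KO 2.

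Genes of fatty acid oxidation and known miR-33 targets held 4 that rose. The list mixes these kinds of gene, and they were not counted apart. Of 12 measured, limma called 4 higher (33.3%) and 0 lower (1 lower at unadjusted p under 0.05), with a median of 0.23. Cpt1a, which admits long-chain fatty acids to mitochondria, read -1.03, -0.79 and -0.17 in WT and 0.60, 0.67 and 0.17 in KO. Sample 3 of both genotypes was nearest to the other genotype, and Cpt1a was 2.21-fold higher in Dicer KO (1.14 ± 0.23, limma adjusted p = 0.0258). Crot, a peroxisomal acyltransferase, rose by 0.36 ± 0.05, the trifunctional protein subunit Hadha by 0.38 ± 0.07 and the AMPK subunit Prkaa1 by 0.39 ± 0.08. Of these, Crot was called with any 1 array left out. Cpt1a was not called without WT 1, WT 2, KO 1 or KO 2 (limma adjusted p 0.0748 to 0.108), Hadha without WT 1, WT 2 or KO 2 (0.0527 to 0.0644), and Prkaa1 without WT 1, KO 1 or KO 2 (0.0594 to 0.103). The calls numbered 1 without WT 1, 2 without WT 2, 2 without KO 1 and 1 without KO 2. Not called were Hadhb (0.30 ± 0.09), Acadl (0.29 ± 0.12), Sirt6 (0.16 ± 0.05) and Acadvl (0.03 ± 0.05). Also not called were Cpt2 (-0.05 ± 0.06), Ppara (-0.08 ± 0.06), Irs2 (-0.09 ± 0.06) and Acadm (-0.22 ± 0.06).

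Other lipid genes showed fewer calls. Of 16 further enzymes of lipid synthesis, 2 rose (12.5%): Lbr, a nuclear envelope protein that also has sterol reductase activity, by 0.65 ± 0.06, and the acyl-CoA synthetase Acsl5 by 0.46 ± 0.06. Lbr read -0.35, -0.28 and -0.33 in WT and 0.40, 0.30 and 0.28 in KO, so that all KO arrays lay above all WT arrays. Among 12 genes that use isoprenoids, Rabggta, which prenylates Rab proteins, fell by 0.46 ± 0.06, and Nus1, a subunit of the dolichol-making transferase, rose by 0.35 ± 0.09 but was called only with all arrays or without KO 3 among these fits (limma adjusted p 0.0852 to 0.166 in the others). Without WT 3, 2 of these 12 were called lower and 2 higher. Of 7 lipid storage genes, 0 were called by limma (3 higher at unadjusted p under 0.05), and the lowest p was that of Dgat1, an enzyme of triglyceride synthesis (0.19 ± 0.05, limma adjusted p = 0.0639). Over the 82 measured genes of these related lists, 19 rose (23.2%) and 2 fell (2.44%), where 5.94% of all genes were called higher and 2.79% lower. In the related lists the number higher was 8, 13 and 19 without WT 1, WT 2 or WT 3. It was 13, 7 and 14 without KO 1, KO 2 or KO 3. Over all genes these fits made 849, 1050 and 1597 calls, and 1321, 729 and 1416, in either direction. With all arrays 1741 were made. Of the 35 members, 1 rose and 11 fell. The related lists too were chosen with results known, and their contrast with the members was not tested.

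**Figure D4:**
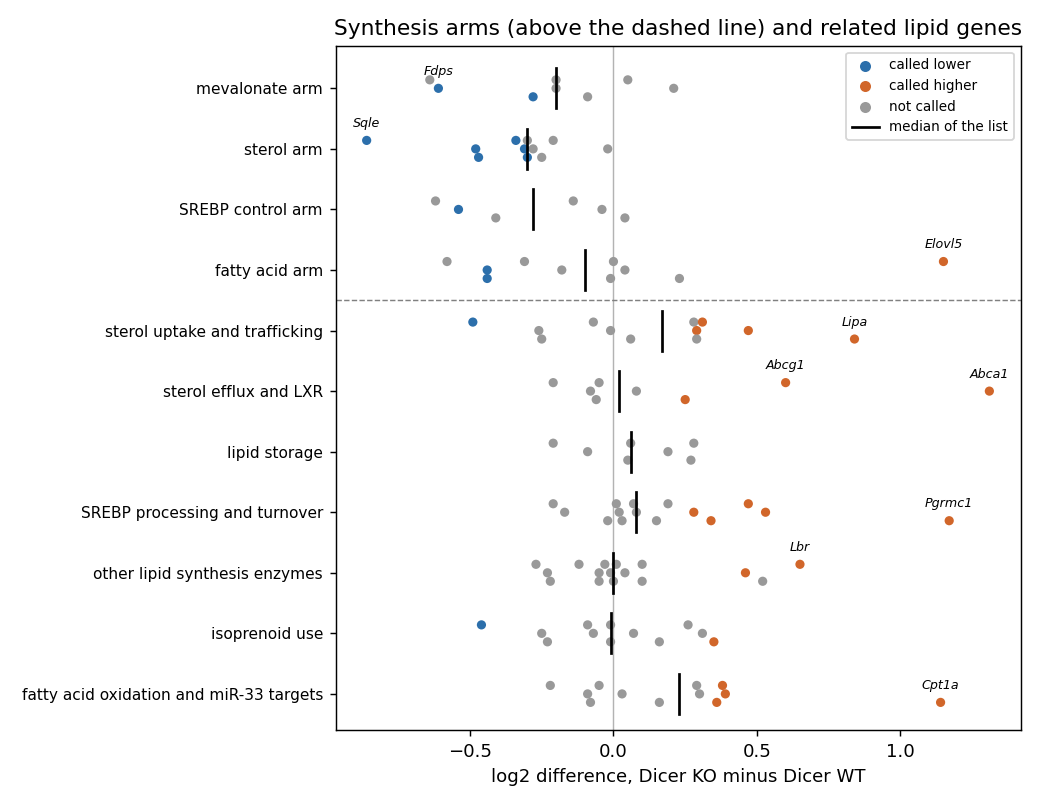
KO mean minus WT mean on the log2 scale (x axis) for the genes of the 4 synthesis arms and 7 related lists (y axis); each point is 1 gene, blue called lower, orange called higher, grey not called, and black bars are list medians. Names mark called genes with a difference of at least 0.6 in size: blue points lie mostly in the upper arms (Sqle, Fdps) and orange points mostly below them (Abca1, Pgrmc1, Cpt1a, Lipa, Lbr).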

How the data were processed

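Total RNA of 6 samples of sorted CD4+CD62L- T cells was measured on 6 arrays. The authors deposited 1 table of 28815 rows of log2 values, in which, as the values show, every row is centred on the median of the 6 arrays (largest absolute row median 5e-07). Base 2 is assumed. MAS5 is listed in the submitters' processing notes, without its role; no source used here states the scaling between arrays. Array medians lay between -0.0088 and 0.0063.

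Row names came from the platform annotation in GEO: 21780 had 1 gene symbol, 1605 several and 5430 none. By gene ID, 21689 took the RefSeq symbol (GRCm38.p6) and 91 kept the annotation's. Rows of a gene were averaged. Genotypes were compared for all 19935 genes with limma 3.58.1 in R 4.3.3 (lmFit, eBayes, Benjamini-Hochberg over all genes, threshold 0.05) with no filter, since the table holds no levels; a trended variance prior needs levels and was not run. The fit was tested on simulated data. The members and gene lists were chosen with earlier results of these data known. All members are named; of each related list at most 4 called genes, by lowest p, or the gene of lowest p where none was called, and further genes as values. Motifs are given for part of the 10 spellings searched. The alternatives were the median or the least variable of a gene's rows, 3 other scalings, the higher level class, array weights, robust variances, a replicate block and leaving out arrays.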

Additional observations from a re-analysis of the deposited data

How the results depend on the processing

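Leaving out 1 array gave 4 to 13 members called lower and a median difference of the members of -0.33 to -0.23, with 1 called higher each time. Over all genes these fits made 729 to 1597 calls in either direction. Array weights gave 17 called lower, but over all genes 2537 calls were then made in either direction, against 1741 in the main fit. In a fit of the higher level class alone, to which 10 members belong, 2 members were called lower, 1 higher, and their median was -0.03. That fit called 1067 of the 3508 genes of the class in either direction. Without sample 3 of both genotypes, an alternative chosen after seeing the data, 17 were called lower and the median was -0.35. Over all genes that fit made 1670 calls in either direction. With the replicate number as a block, 12 members were called lower and 1 higher, and over all genes 2063 calls were made against 1741. In the labels, WT and KO samples are matched by number only. The deviations of same-numbered arrays from their genotype means correlated at 0.27, -0.08 and 0.30. WT 1 and KO 1 correlated best with each other, as did WT 3 and KO 3, but WT 2 and KO 2 did not. Whether same-numbered arrays shared a batch was not tested. Of 535 single-gene differences under the alternatives, 525 moved by less than the spread between replicates, 10 by more, and 0 called members changed sign. Leaving out 1 array cannot move a difference by more than this spread. Robust variances and the replicate block cannot move it at all, nor can the median of 1 or 2 rows. The count of 525 is therefore no measure of stability. The number of arrays limits the precision. A trended variance prior was planned and not run, because the table holds no levels.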

Other observations

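Other lipid gene families, chosen after their values were seen, add the following values. Of 9 measured genes of the oxysterol-binding OSBP-like family, limma called 3 higher in Dicer KO and 0 lower (1 lower at unadjusted p under 0.05): Osbpl8 by 0.73 ± 0.17 (limma adjusted p = 0.0443), Osbpl9 by 0.52 ± 0.08 (0.0104) and Osbpl11 by 0.23 ± 0.05 (0.0374); 5.94% of all genes were called higher. Leaving out KO 2 gave 0 calls, KO 3 gave 2, and each of the other 4 arrays gave 1. Of the 7 elongase genes Elovl1 to Elovl7, Elovl5 alone was called; the other 6 ran from -0.31 for Elovl6 to 0.10 for Elovl7. Of the 4 LPCAT genes, Lpcat3, an acyltransferase that puts polyunsaturated fatty acids into phospholipids, rose by 0.59 ± 0.09 (limma adjusted p = 0.00913), and the other 3 were not called. Of 16 measured genes of the ABCA transporter class, Abca1 alone was called. Pcyt2, of phosphatidylethanolamine synthesis, fell by 0.23 ± 0.05 (limma adjusted p = 0.0365). Gpr183, the receptor for the oxysterol that guides lymphocytes, read 0.73, 0.60 and 0.03 on WT 1 to 3 and -0.52, -0.03 and -0.29 on KO 1 to 3, and was not called (-0.74 ± 0.20, limma adjusted p = 0.0663).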
